A study of Heterocephalus glaber with 9 samples.

Results

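The acute phase plasma protein genes followed here were the pentraxins CRP and APCS, the carrier proteins HP, ORM1 and LCN2, the endotoxin binding protein LBP, the inter-alpha-trypsin inhibitor heavy chains ITIH3 and ITIH4, the serum amyloid A gene SAA4, and STAT3, the transcription factor through which interleukin 6 drives much of the response. They were chosen by name as a functional group. All 10 have a row among the 16339 gene rows of the table, and 9 carried enough counts to be tested. RNA-seq of polyadenylated RNA was made from the livers of 9 male naked mole-rats (Heterocephalus glaber), a rodent known for its long life, to ask how expression differs with age. The 3 old animals were labelled non-breeders, at 20 years (liver A), 30 years (liver B) and 20 years (liver C). The 6 young animals were 2.7, 2.8, 3.4, 3.7, 3.8 and 4.1 years old, their labels give no breeding status, and their libraries were also used in another study. The old ages are those of the labels. The methods give only a minimum for old animals, which lies above the labelled 20 years, so the labelled ages may not be exact. No animal was treated, and each gave 1 library.

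The acute phase response is the change in plasma proteins that follows infection or tissue injury. Cytokines of the IL-6 and IL-1 families reach the hepatocyte, where STAT3, the C/EBP factors and NF-kB act on the promoters of secreted proteins, and SOCS3 damps the signal again. Proteins that rise in plasma are called positive acute phase proteins. Albumin, transthyretin and others that fall are called negative. Species differ in which protein responds most: CRP is a major reactant in humans, serum amyloid P (APCS) in mice, and haptoglobin and orosomucoid respond widely among mammals.

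The libraries held 15176226 to 20048731 counts in old livers and 14541856 to 20464409 in young livers, and values are CPM (counts scaled to the size of each library, with TMM factors). Spearman's rho over genes was 0.989 for old livers B and C, but 0.841 for A and B and 0.853 for A and C, so that liver A stood apart. The young liver of 4.1 years likewise stood apart from the other young livers (0.901 to 0.915, against 0.970 to 0.988 among the rest). Genes are not independent replicates, so these are descriptions. The labels open with a code that is shared by all young livers, differs in old livers B and C, and reads as merged in old liver A. Its meaning is not stated, and whatever it marks cannot be told apart from age.

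Of the 9 genes tested, 1 was higher in old livers and 0 were lower (edgeR quasi-likelihood test, Benjamini-Hochberg adjusted over all 12277 genes tested, false discovery rate (FDR) under 0.1). That is 11.1% of the group, beside 11.7% of all genes tested called higher, 3.65% called lower and 15.4% called in either direction. The share called was thus near that of all genes. At an unadjusted p under 0.05 the edgeR counts were 2 higher and 0 lower, and DESeq2 and limma voom also called 0 lower. The old livers lay all above the young livers for 1 of the 9 (9.83% of all genes tested) and all below them for 0 (8.01% of all genes tested). The log2 fold change of old over young livers was positive for 6 of the 9, with a median of 0.13, beside a median of 0.02 and 50.8% positive over all genes tested. STAT3 was the gene called higher, while the secreted proteins were spread on both sides of no change. As RNA came from whole liver, fewer cells of a type and less RNA per cell cannot be told apart in any of these values.

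**Figure D1:**
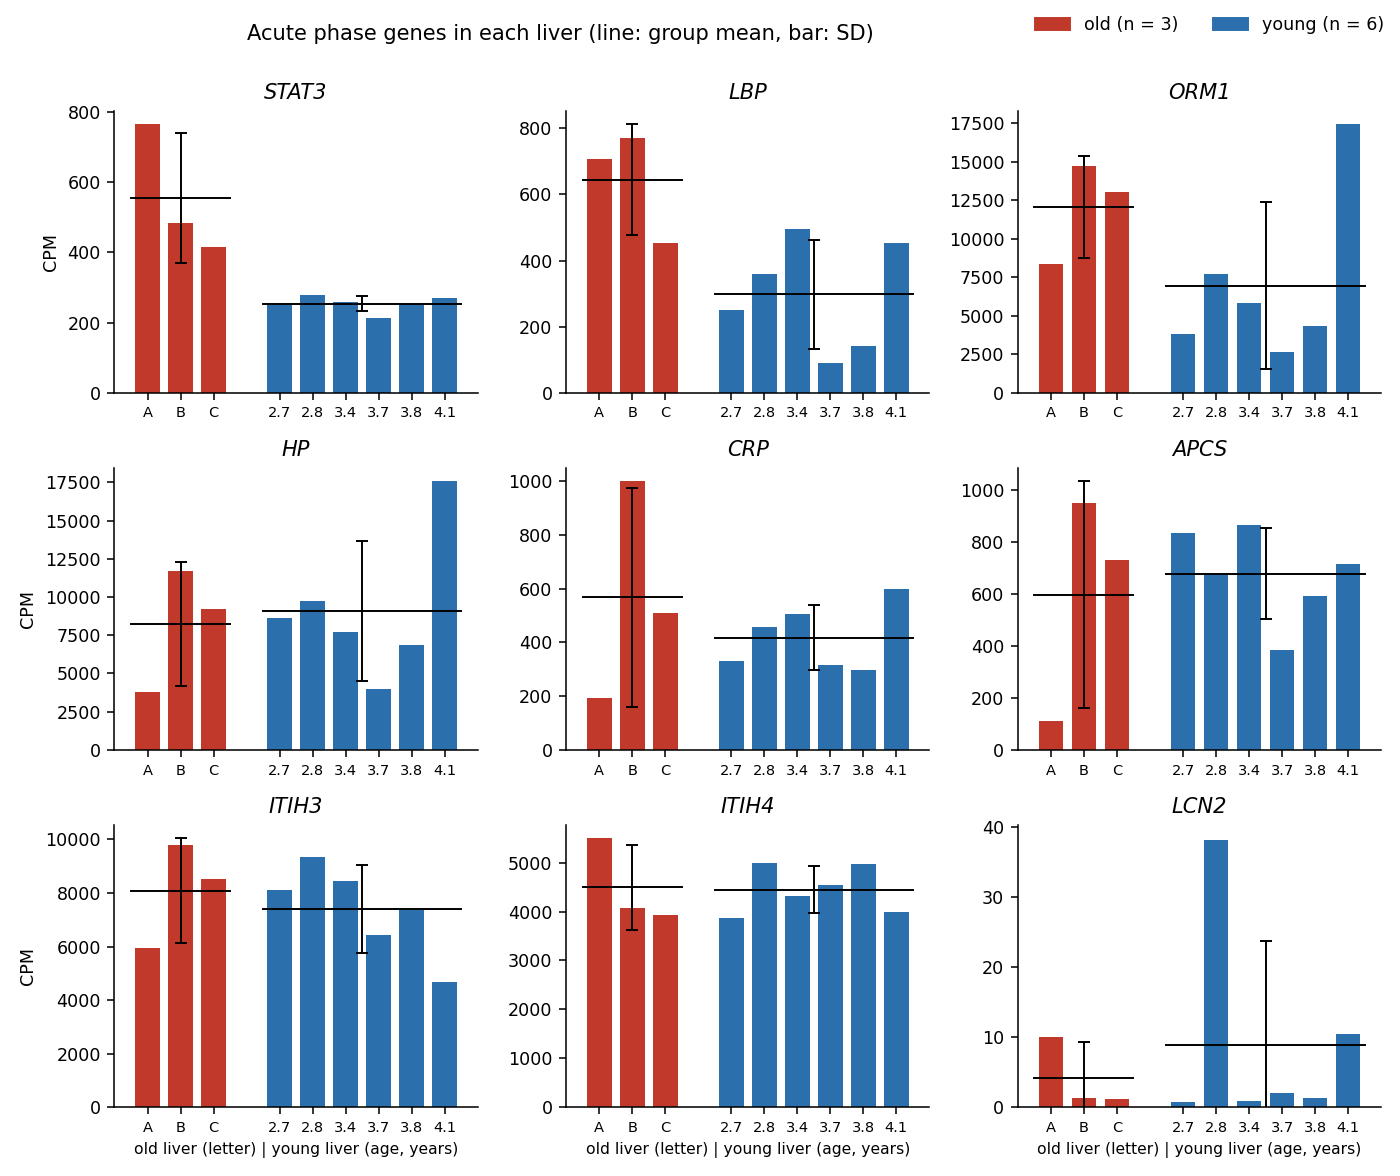
Level of 9 acute phase genes in each liver, in CPM on linear axes that start at 0, with the 3 old livers in red on the left of each panel and the 6 young livers in blue by age in years. Horizontal lines are group means and vertical bars the SD (n = 3 and 6, with the LCN2 bars cut at 0). In STAT3 alone the 3 old livers (415 to 765 CPM) all stood above the young livers (214 to 278 CPM), and old liver A was the lowest of all 9 livers in HP, CRP and APCS.

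STAT3, the transcription factor that carries the IL-6 signal to the nucleus, had 765 CPM in old liver A, 483 CPM in old liver B and 415 CPM in old liver C. In young livers it ran from 214 CPM through a median of 256 CPM to 278 CPM. The old livers all lay above the young livers, with liver A the highest. The mean was 554 ± 185 CPM in old livers and 254 ± 22.2 CPM in young livers (SD, n = 3 and 6), a 2.18-fold difference. The log2 fold change was 1.13 ± 0.24 (SE, 95% interval 0.61 to 1.65, edgeR FDR = 0.0395). By an exact two-sided permutation test of STAT3 alone the p was 0.0238, the smallest that 3 livers against 6 allow. STAT3 was also the steadiest of the group among young livers, with a coefficient of variation of 8.74%.

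The size of the STAT3 difference leaned on old liver A. Without it the log2 fold change was 0.82 (edgeR FDR = 0.0542), when 2.13% of all genes were called higher. Without both old liver A and the young liver of 4.1 years it was 0.84 (edgeR FDR = 0.00867), when 14.2% of all genes were. Without the young liver of 2.7 years the log2 fold change stayed at 1.12 but the edgeR FDR was 0.103, which misses the threshold, in a fit where 1.02% of all genes were called higher against 11.7% with every liver.

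LBP, which hands bacterial lipopolysaccharide to CD14 and its receptor, came next in size. It had 708 CPM in old liver A, 771 CPM in old liver B and 454 CPM in old liver C. In young livers LBP ran from 91.6 CPM through a median of 305 CPM to 496 CPM. Livers A and B lay above every young liver, while liver C lay within the young range, close to the young livers of 3.4 and 4.1 years. The young livers of 3.7 and 3.8 years were the low ones. The mean was 644 ± 168 CPM in old livers and 299 ± 165 CPM in young livers (SD, n = 3 and 6). The log2 fold change of 1.11 ± 0.47 (SE, 95% interval 0.06 to 2.15) had an unadjusted p of 0.0396 in edgeR but did not pass after adjustment (FDR = 0.151). The exact permutation test of LBP alone gave a p of 0.0476. Of 20 alternatives 2 called LBP: voom with quality weights (log2 fold change 1.30, FDR = 0.0420) and edgeR scaled to hepatocyte markers (1.45, FDR = 0.0645). Those fits called 20.5% and 14.7% of all genes higher. DESeq2 (1.09, FDR = 0.117) and edgeR without old liver A (1.04, FDR = 0.360) did not call LBP.

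The pentraxins are ring-shaped plasma proteins that bind microbial surfaces and cell debris and recruit complement. CRP had 192 CPM in old liver A, 999 CPM in old liver B and 510 CPM in old liver C. Young livers ran from 299 CPM through a median of 394 CPM to 598 CPM. The highest and the lowest CRP values of the 9 livers were therefore both in old livers, 5.19-fold apart, against 2.00-fold between the extremes of the young livers. For CRP the log2 fold change was 0.44 ± 0.43 (SE, 95% interval -0.52 to 1.40, edgeR FDR = 0.507). It depended on which livers entered: it was -0.25 without old liver B (edgeR FDR = 0.691) and 0.98 without old liver A and the young liver of 4.1 years (edgeR FDR = 0.0465). Voom, which was run with a weight for the quality of each liver, called CRP higher (0.85, FDR = 0.0305).

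APCS, the serum amyloid P component, followed the same order among old livers, with 111 CPM in liver A, 954 CPM in liver B and 731 CPM in liver C. Young livers ran from 385 CPM through a median of 697 CPM to 866 CPM. Liver A lay far below all other livers, liver B lay above every young liver, and liver C lay near the young median. The spread among old livers was 8.58-fold, the widest of the tested genes but for LCN2 (8.68-fold). APCS had a log2 fold change of -0.18 ± 0.52 (SE, 95% interval -1.34 to 0.97, edgeR FDR = 0.833), and without old liver A it was 0.31 (edgeR FDR = 0.613).

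HP encodes haptoglobin, which binds free hemoglobin, and ORM1 encodes orosomucoid (alpha-1-acid glycoprotein), which binds drugs and lipids in plasma. ORM1 had 8336 CPM in old liver A, 14705 CPM in old liver B and 13046 CPM in old liver C. In young livers it ran from 2624 CPM through a median of 5075 CPM to 17417 CPM. All 3 old livers lay above 5 of the 6 young livers, and the remaining one, of 4.1 years, was the highest of all. The mean was 12029 ± 3304 CPM in old livers and 6953 ± 5416 CPM in young livers (SD, n = 3 and 6).

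With every liver included the log2 fold change of ORM1 was 0.79 ± 0.52 (SE, 95% interval -0.36 to 1.95, edgeR FDR = 0.321). That call turned on the young liver of 4.1 years. Without it the log2 fold change was 1.31 (edgeR FDR = 0.0536), without it and old liver A 1.51 (edgeR FDR = 0.0218), and voom on all livers gave 1.49 (FDR = 0.00401). These were the 3 of 20 alternatives that called ORM1, and they called 17%, 14.2% and 20.5% of all genes higher. As that young liver held the highest ORM1 value of all, leaving it out by itself raises the difference.

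HP had 3794 CPM in old liver A, 11700 CPM in old liver B and 9207 CPM in old liver C. Young livers ran from 3980 CPM through a median of 8192 CPM to 17568 CPM, the last again in the liver of 4.1 years. The groups overlapped over most of their range, with the lowest liver an old one and the highest a young one. Between old and young livers HP had a log2 fold change of -0.14 ± 0.47 (SE, 95% interval -1.17 to 0.89, edgeR FDR = 0.853), and leaving out old liver A (0.20) or the young liver of 4.1 years (0.16) turned its sign.

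LCN2 encodes lipocalin 2, which binds bacterial siderophores and is made both by inflamed hepatocytes and by neutrophils. It was low in most livers, with 10.1 CPM in old liver A (180 counts), 1.30 CPM in old liver B (29 counts) and 1.16 CPM in old liver C (25 counts). Young livers ran from 0.780 CPM through a median of 1.63 CPM to 38.1 CPM (15 to 545 counts). The 3 livers with most LCN2 were the young livers of 2.8 and 4.1 years and old liver A, so the high values did not follow age. LCN2 had a log2 fold change of -1.10 ± 1.32 (SE, 95% interval -4.00 to 1.81, edgeR FDR = 0.589), and it was 0.45 without the young liver of 2.8 years and -2.84 without old liver A.

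The summed level of 20 neutrophil marker genes was 138 CPM in old liver A, 178 CPM in B and 112 CPM in C, against 354 CPM and 269 CPM in the young livers of 4.1 and 2.8 years and 77.9 to 96.1 CPM in the other young livers. Of these markers 15 were tested and edgeR called 0 in either direction (1 higher and 0 lower at an unadjusted p under 0.05), against 1 higher and 1 lower with DESeq2 and 4 higher and 1 lower with voom. The part of neutrophils in the LCN2 values was not tested.

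ITIH3 and ITIH4 encode heavy chains of the inter-alpha-trypsin inhibitor family, and ITIH3 can be linked to hyaluronan in the extracellular matrix. ITIH3 had 5959 CPM in old liver A, 9780 CPM in old liver B and 8541 CPM in old liver C, within or just above the young range of 4690 to 9361 CPM (median 7739 CPM). ITIH4 had 5497 CPM in old liver A, 4063 CPM in old liver B and 3932 CPM in old liver C, against 3867 to 4999 CPM in young livers (median 4424 CPM). The groups overlapped for both genes, with 1 old liver above the young range in each (B for ITIH3, A for ITIH4). ITIH3 had a log2 fold change of 0.13 ± 0.28 (SE, 95% interval -0.50 to 0.75, edgeR FDR = 0.781). For ITIH4 it was 0.02 ± 0.23 (SE, 95% interval -0.49 to 0.53, edgeR FDR = 0.968). The sign of ITIH4 turned under several alternatives.

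SAA4, a serum amyloid A gene made constitutively by human liver, had 0, 1 and 2 counts in old livers A, B and C, and 1 count in the young liver of 2.7 years against 0 in the other young livers. It did not pass the filter on low counts and was not tested. A count of 0 allows up to 3 counts, which is 0.149 to 0.217 CPM in the 5 young livers concerned. SAA4 was not detectable beyond that level.

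**Figure D2:**
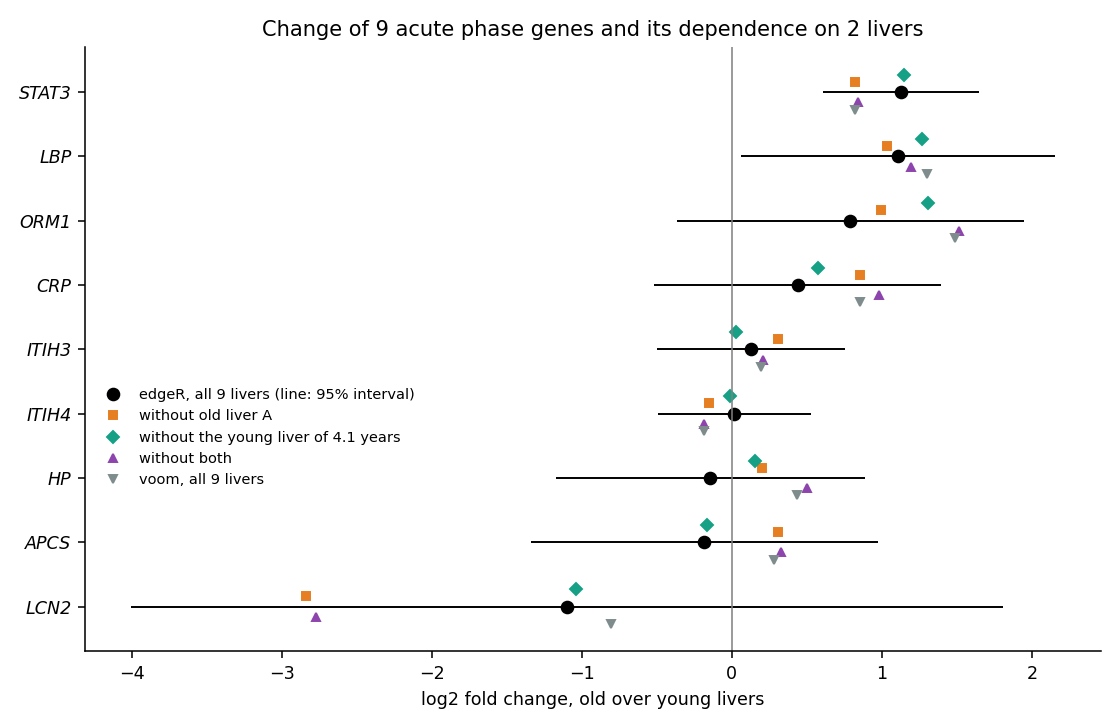
Log2 fold change of old over young livers for the 9 tested acute phase genes (edgeR, black points with 95% intervals from all 9 livers), with the value without old liver A, without the young liver of 4.1 years, without both, and from voom. The interval of STAT3 (0.61 to 1.65) lay clear of 0 and that of LBP just so (0.06 to 2.15), while HP, APCS and ITIH4 changed sign with the livers left out.

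The genes differed in which liver was the highest. Among old livers, B was the highest for CRP, APCS, HP, ORM1, LBP and ITIH3, and A was the highest for STAT3, ITIH4 and LCN2. Among young livers the one of 3.7 years was the lowest for 5 of the 9 genes, and the one of 4.1 years was the highest for CRP, HP and ORM1. Liver A was thus the highest of all 9 livers for STAT3 and ITIH4 and the lowest of all for CRP, APCS and HP. The summed level of the 10 genes was 25372 CPM in liver A, 43456 CPM in liver B and 36837 CPM in liver C, within the young range of 18593 to 45716 CPM.

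The genes also differed in how far they varied among young livers. The coefficient of variation was 8.74% for STAT3, 10.8% for ITIH4, 22.4% for ITIH3, 25.9% for APCS, 29.0% for CRP, 50.5% for HP, 55.1% for LBP, 77.9% for ORM1 and 166% for LCN2. For ORM1 the young livers alone covered a 6.64-fold range.

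Ratios of counts within a liver do not depend on scaling between libraries. Of 11 such ratios, chosen after the values had been seen, 3 did not overlap between the groups. Each had the smallest p that an exact two-sided permutation test allows here (p = 0.0238, or 0.0873 adjusted over the 11). As the ratios were picked from many possible gene pairs, these p-values do not measure chance, and the share of all pairs without overlap is not known here. ITIH2 and ALB, lower terms among these ratios, themselves lay below the young range in every old liver. ORM1 over HP was 2.20 in old liver A, 1.26 in B and 1.42 in C, against 0.444 to 0.991 in young livers, so that ORM1 exceeded HP in count in every old liver and in no young liver. ITIH3 over ITIH2, another heavy chain, was 12.7 in old liver A, 11.8 in B and 11.8 in C, against 3.66 to 7.99 in young livers. ORM1 over ALB, the albumin gene, was 0.697 in old liver A, 0.213 in B and 0.213 in C, against 0.0214 to 0.193 in young livers. The other ratios overlapped, among them APCS over CRP (0.578, 0.955 and 1.43 in old livers A, B and C, against 1.20 to 2.54 in young livers) and ITIH4 over ITIH1 (3.53, 4.12 and 4.31 in old livers A, B and C, against 3.10 to 4.19 in young livers).

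**Figure D3:**
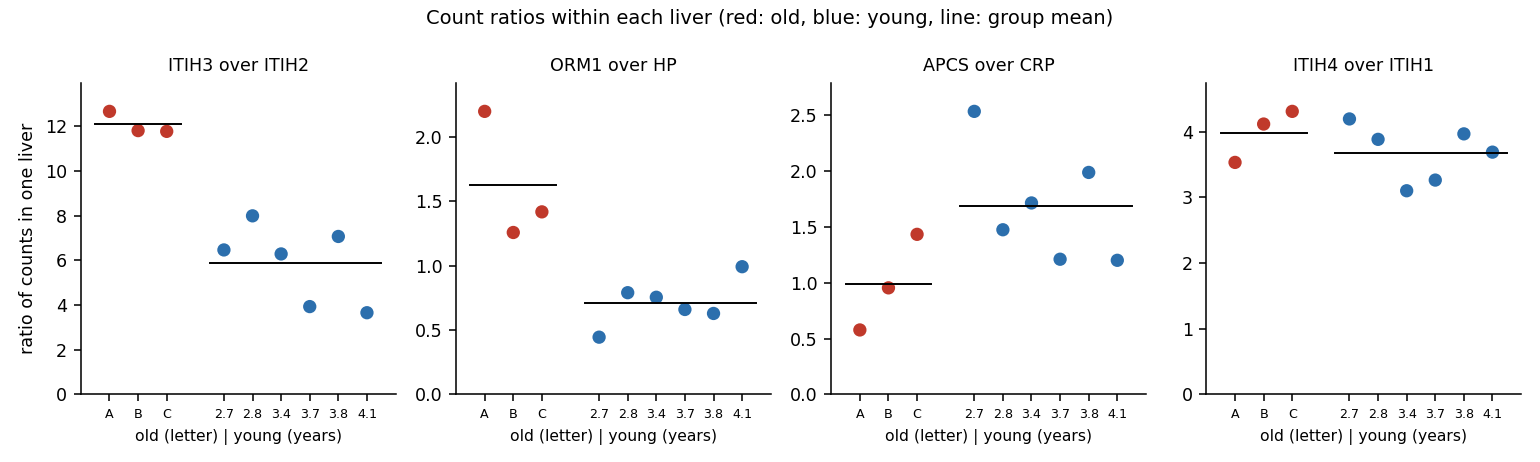
Ratio of the counts of 2 genes within each liver, on linear axes from 0, with the 3 old livers in red by letter and the 6 young livers in blue by age in years, and group means as lines. ITIH3 over ITIH2 (11.8 to 12.7 in old livers, 3.66 to 7.99 in young livers) and ORM1 over HP (1.26 to 2.20 in old livers, 0.444 to 0.991 in young livers) did not overlap, while APCS over CRP and ITIH4 over ITIH1 did.

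Beyond these genes, 35 further genes were listed by name as positive acute phase genes, though whether each rises in this species was not tested. Of these 30 have a row, and SAA1, SAA2, SAA3, ORM2 and MT2A were not analysed here. Among the 29 tested, 2 were higher (6.90%) and 1 was lower (3.45%) in old livers, with a median log2 fold change of -0.20. Over all genes tested edgeR called 11.7% higher and 3.65% lower, or 2.13% and 1.35% without old liver A. Without both that liver and the young liver of 4.1 years the shares were 14.2% and 11.7%, and with voom 20.5% and 16.8%. DESeq2 called 1806 higher and 1058 lower of 13340 genes. These shares also stand beside the counts of the lists that follow. IL1RN, the IL-1 receptor antagonist, had 15.8 CPM in old liver A, 28.3 CPM in B and 18.9 CPM in C, against 7.23 to 13.1 CPM in young livers (log2 fold change 1.15 ± 0.27, SE, edgeR FDR = 0.0462). The complement gene C4A was also higher, with 6441, 4616 and 4091 CPM in old livers A, B and C against 2200 to 3852 CPM in young livers (0.83 ± 0.27, SE, edgeR FDR = 0.0808), and missed the threshold without old liver A (0.62, FDR = 0.208).

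ITIH2 was the gene called lower, with 470 CPM in old liver A, 828 CPM in B and 726 CPM in C, all below the young range of 1041 to 1639 CPM (-0.93 ± 0.27, SE, edgeR FDR = 0.0645). Of the heavy chain genes ITIH1 to ITIH4 it was the one called, and it is the lower term of the ratio of ITIH3 to ITIH2. Whether ITIH2 is a positive or a negative reactant in this species was not tested, so its call is not read as the fall of a positive one. HAMP, the iron hormone hepcidin, had 462 CPM in old liver A, 914 CPM in B and 626 CPM in C, against 86.0 to 579 CPM in young livers (1.28 ± 0.48, SE), and did not pass in edgeR (FDR = 0.116). The counts of higher and lower genes in this list were 6 and 4 without old liver A and the young liver of 4.1 years, 8 and 5 with voom, 4 and 4 with DESeq2, and 1 and 0 without old liver A.

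All 16 negative acute phase genes were tested, and 14 had a negative log2 fold change (median -0.83). Of the 16, 2 were called lower (12.5%, beside 3.65% of all genes tested) and 1 higher (6.25%, beside 11.7%). Among the 19 hepatocyte markers listed as not acute phase, 5 had a positive log2 fold change, with a median of -0.47, and edgeR called 0 lower. Whether some of these markers are themselves reactants in this species was not tested. A negative median was thus shared by both lists, and was the larger in size in the negative acute phase genes. AHSG, which encodes fetuin A, had 3629 CPM in old liver A, 6944 CPM in B and 8544 CPM in C, all below the young range of 11629 to 15766 CPM (-1.05 ± 0.31, SE, edgeR FDR = 0.0669). IGF1, the growth factor that liver supplies to the circulation, was at 28.6, 160 and 140 CPM in old livers A, B and C against 248 to 827 CPM in young livers (-1.93 ± 0.57, SE, edgeR FDR = 0.0703). F12, which encodes coagulation factor XII, was higher (0.76 ± 0.24, SE, edgeR FDR = 0.0782). Without old liver A none of these 3 passed in edgeR: AHSG was at -0.77 (FDR = 0.102), IGF1 at -1.48 (FDR = 0.144) and F12 at 0.67 (FDR = 0.165).

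ALB, the albumin gene, had 11955 CPM in old liver A, 69097 CPM in B and 61356 CPM in C, against 90095 to 177159 CPM in young livers. The old livers all lay below the young ones, A by far, and the log2 fold change of -1.40 ± 0.50 (SE) missed the threshold (edgeR FDR = 0.103). Without old liver A, edgeR called 0 of the 16 negative genes in either direction (6 lower and 1 higher at an unadjusted p under 0.05). In that fit 1.35% of all genes were called lower and 2.13% higher. Without both old liver A and the young liver of 4.1 years 4 were lower and 2 higher (11.7% and 14.2% of all genes). DESeq2 called 7 lower and 2 higher (1058 and 1806 of 13340 genes), and voom 9 lower and 2 higher (16.8% and 20.5% of all genes).

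Around STAT3, the list of IL-6 family signaling held 25 tested genes, of which 11 were higher and 0 lower in old livers (44.0%, beside 11.7% of all genes called higher), with a median log2 fold change of 0.71. LIFR and IL22 were not analysed here. The cytokine LIF, which signals through the same gp130 subunit as IL-6, had 8.21 CPM in old liver A, 2.60 CPM in B and 1.86 CPM in C, against 0.104 to 0.858 CPM in young livers (3.11 ± 0.57, SE, edgeR FDR = 0.0376). The kinases JAK1 (0.86, FDR = 0.0767) and TYK2 (0.71, FDR = 0.0787), which sit on cytokine receptors, and STAT5B (0.93, FDR = 0.0564) were higher in edgeR, as were IL11 (2.01, FDR = 0.0766) and ADAM17 (0.87, FDR = 0.0510), the protease that sheds the IL-6 receptor.

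Genes that restrain the same pathway were among those called higher. SOCS3, an inhibitor that STAT3 induces, had 121 CPM in old liver A, 43.2 CPM in B and 5.05 CPM in C, against 2.01 to 13.5 CPM in young livers. Liver C lay within the young range, and the log2 fold change of 2.72 ± 0.75 (SE, edgeR FDR = 0.0602) was 1.50 without old liver A (FDR = 0.328). SOCS1 (1.53, FDR = 0.0551), PIAS3 (1.61, FDR = 0.0564), and the phosphatases PTPN2 (0.88, FDR = 0.0726) and PTPRT (3.14, FDR = 0.0376) were higher as well in edgeR. Without old liver A, LIF (2.20, FDR = 0.0785) and ADAM17 (0.86, FDR = 0.0940) kept the call in edgeR. IL11 was then at 0.76 (FDR = 0.492), JAK1 at 0.37 (FDR = 0.205), PIAS3 at 0.78 (FDR = 0.269), PTPN2 at 0.43 (FDR = 0.243), PTPRT at 1.90 (FDR = 0.113) and SOCS1 at 1.05 (FDR = 0.196).

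The receptors of the pathway, picked out after their values had been seen, were not called. IL6R had 437 CPM in old liver A, 213 CPM in B and 236 CPM in C, against 193 to 259 CPM in young livers. IL6ST, which encodes gp130, had 47.6 CPM in old liver A and 43.8 CPM in the young liver of 4.1 years, and 185 to 583 CPM in the other 7 livers. IL6 itself was at 0 counts in all livers but A, where it had 0.06 CPM. The count of 11 depended on liver A: without it 2 genes of the list were higher, when 2.13% of all genes were (11 at an unadjusted p under 0.05, both with and without it), and without both that liver and the young liver of 4.1 years 12 were higher, when 14.2% of all genes were.

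Of 33 tested genes of IL-1, TNF and NF-kB signaling, which drives the other arm of the response, 9 were higher and 0 lower (27.3%, beside 11.7% of all genes called higher, with a median log2 fold change of 0.43). NFKBIZ, a nuclear cofactor of NF-kB, had 67.9 CPM in old liver A, 60.8 CPM in B and 30.6 CPM in C, against 13.9 to 24.6 CPM in young livers (1.42 ± 0.27, SE, edgeR FDR = 0.0376). IRAK1, a kinase of the IL-1 receptor, was at 186, 52.6 and 52.0 CPM in old livers A, B and C against 20.4 to 36.1 CPM in young livers (1.74 ± 0.38, SE, edgeR FDR = 0.0436). TAB1 (1.45, FDR = 0.0514) and RIPK1 (1.20, FDR = 0.0550), which join the receptors to the downstream kinases, followed. Without old liver A 2 genes of this list were higher, when 2.13% of all genes were: NFKBIZ (1.21, FDR = 0.0790) and IRAK1 (0.85, FDR = 0.0940). TAB1 was then at 0.60 (FDR = 0.140) and RIPK1 at 0.63 (FDR = 0.195). With every liver, voom called 15 of the 33 higher and 2 lower, beside 20.5% and 16.8% of all genes.

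Among 11 tested hepatocyte transcription factors that act on acute phase promoters, 2 were higher and 0 lower in edgeR (median -0.14, and 1 lower at an unadjusted p under 0.05). That is 18.2% called higher, beside 11.7% of all genes tested. DESeq2 called 3 higher and 0 lower, and voom 3 higher and 2 lower. CEBPA, CEBPE and ONECUT1 were not analysed here. CREB3L3, a membrane-bound factor of the hepatocyte that in mouse takes part in CRP and APCS expression, had 210 CPM in old liver A, 218 CPM in B and 175 CPM in C, against 60.2 to 96.2 CPM in young livers. The old livers lay close together and far above the young ones. The log2 fold change was 1.33 ± 0.22 (SE, edgeR FDR = 0.0312), and it was 1.30 without old liver A (FDR = 0.0299).

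CEBPD, a C/EBP factor that IL-6 induces, had 289 CPM in old liver A, 106 CPM in B and 118 CPM in C, against 22.3 to 90.1 CPM in young livers (1.82 ± 0.42, SE, edgeR FDR = 0.0447), and it missed the threshold without old liver A (1.21, FDR = 0.151). CEBPB had 305, 130 and 147 CPM in old livers A, B and C against 31.6 to 138 CPM in young livers and was just outside (1.15 ± 0.41, SE, edgeR FDR = 0.102).

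**Figure D4:**
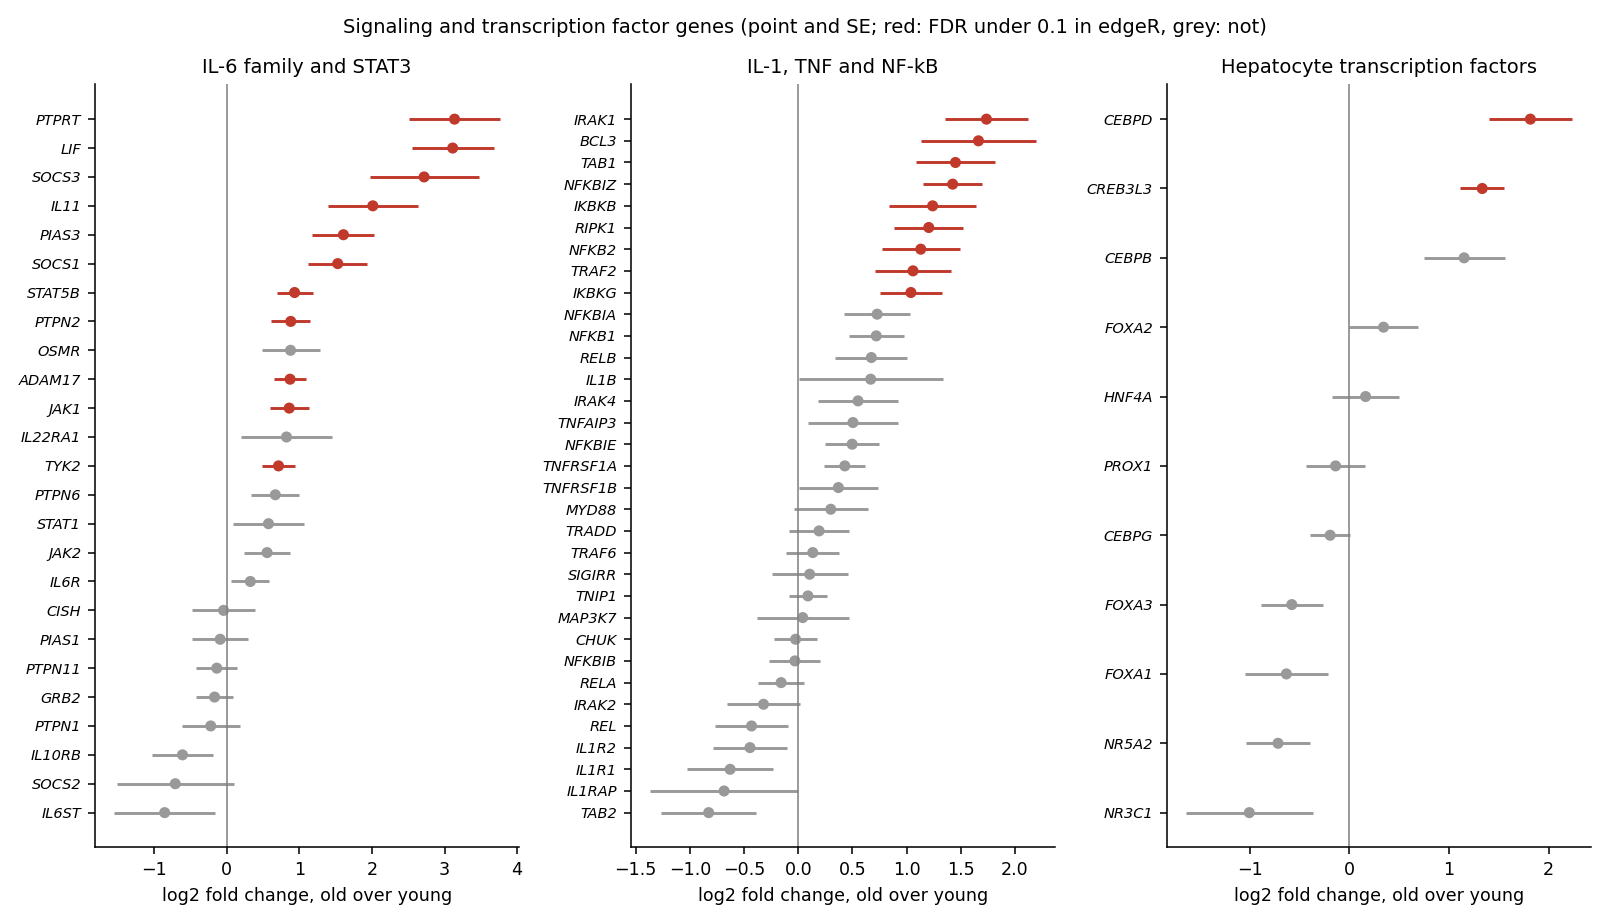
Log2 fold change of old over young livers with its SE (horizontal bar) for the tested genes of 3 lists of signaling and transcription factor genes, in red where the edgeR FDR was under 0.1 and in grey elsewhere. All genes in red lie to the right of 0: 11 of 25 for the IL-6 family and STAT3, 9 of 33 for IL-1, TNF and NF-kB, and 2 of 11 for the hepatocyte transcription factors. Leaving out old liver A lowered these counts to 2, 2 and 1. Over all genes tested 11.7% were called higher with every liver and 2.13% without old liver A.

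Of 18 tested partners and receptors of the acute phase proteins, 1 was higher and 2 were lower. These are 5.56% and 11.1%, beside 11.7% of all genes tested called higher and 3.65% called lower. TNFAIP6, which transfers heavy chains of the ITIH family to hyaluronan, had 132 CPM in old liver A, 31.1 CPM in B and 36.3 CPM in C, against 6.56 to 20.5 CPM in young livers (2.22 ± 0.46, SE, edgeR FDR = 0.0390). FCGR2B, an inhibitory Fc receptor, had 33.5, 50.9 and 49.4 CPM in old livers A, B and C, below the 74.0 to 123 CPM of young livers (-0.995 ± 0.25, SE, edgeR FDR = 0.0517). ITIH2 was the other gene called lower. Without old liver A edgeR called 0 higher and 0 lower (3 each at an unadjusted p under 0.05), with TNFAIP6 at 1.25 (FDR = 0.104), FCGR2B at -0.83 (FDR = 0.110) and ITIH2 at -0.73 (FDR = 0.117). DESeq2 called 1 higher and 3 lower, and voom 3 and 5. CD14, to which LBP passes lipopolysaccharide, had 29.2, 113 and 119 CPM in old livers A, B and C against 120 to 194 CPM in young livers (-0.93 ± 0.40, SE, edgeR FDR = 0.150).

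Cell type markers were read beside these genes. Over all genes tested edgeR called 11.7% higher and 3.65% lower, and voom 20.5% and 16.8%. The 19 hepatocyte markers listed as not acute phase summed to 25789 to 36380 CPM in old livers and 31069 to 50401 in young livers. By edgeR 1 of 19, UROC1, was higher and 0 were lower, with 2 each at an unadjusted p under 0.05. DESeq2 called 2 of them higher and 4 lower, and voom 4 and 7. Macrophage markers summed to 280 CPM in old liver A and 734 to 805 CPM in old livers B and C, against 612 to 732 CPM in young livers (0 of 12 called by edgeR, and 1 lower at an unadjusted p under 0.05). T and B cell markers summed to 94.7 to 299 CPM in old livers and 152 to 397 CPM in young livers. Of these, edgeR called 0 of 8, with 1 lower at an unadjusted p under 0.05. CD4 made up most of the sum, with 77.8, 284 and 282 CPM in old livers A, B and C. In the young liver of 2.8 years IGJ did, with 214 CPM. The T cell genes CD3D, CD3E and CD3G were at 0.36 to 1.39 CPM in all livers. The sum is thus not read as the amount of T and B cells. Cholangiocyte markers summed to 89.6 CPM in old liver A and 209 to 217 CPM in old livers B and C. In young livers they summed to 179 to 332 CPM. Of these, edgeR called 0 of 8 (0 at an unadjusted p under 0.05), DESeq2 0 and voom 1 higher.

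Erythroid markers summed to 75.3 to 119 CPM in old livers and 235 to 921 CPM in young livers, mostly from the globin genes HBA2 and HBB. Of 7 tested, edgeR called 3 lower (ALAS2, HBA2 and HBB) and 0 higher in old livers. At an unadjusted p under 0.05, 4 were lower and 1 was higher (SPTB, log2 fold change 0.69). Stellate and endothelial markers summed to 1811 CPM in old liver A and 809 to 819 CPM in old livers B and C, against 629 to 907 CPM in young livers, with 3 of 20 higher and 4 lower by edgeR. Without old liver A these counts were 0 and 2 (2 and 6 at an unadjusted p under 0.05), with voom 2 and 9, and with DESeq2 3 and 5. Much of the sum in liver A came from the endothelial genes STAB1 (755 CPM) and STAB2 (433 CPM). The stellate cell genes LRAT (1.17 CPM), RGS5 (0.782 CPM) and DCN (1.90 CPM) were the lowest of all 9 livers there. These genes were picked out after their values had been seen. Between old and young livers, 5 of the 20 genes of the list had a positive log2 fold change (median -0.43). STAB1 and STAB2 are thus not read as endothelial genes as a whole. Liver A, low in CRP, APCS, HP and ALB and high in STAT3 and SOCS3, was thus also the lowest in macrophage markers and the highest in STAB1 and STAB2. Voom called 3 macrophage markers higher and 1 lower and 2 T and B cell markers higher, and DESeq2 called 1 lower in each of these lists. The gene MTRNR2L4 took 10.1% of the counts in liver A and 11.9% in the young liver of 4.1 years, against 2.43% to 4.17% in the others. The part of cell makeup or of library quality in the values of liver A was not tested.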

How the data were processed

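Polyadenylated liver RNA of 9 male naked mole-rats was sequenced, 1 library per animal. Per the labels and the methods of the study, the authors mapped reads with STAR 2.4.1d, kept uniquely placed reads and counted them per gene with HTSeq. The HTSeq version and its strand mode were not given in the sources used here. Reads of overlapping or antisense genes may be shared, and values of genes with close paralogs (ORM1, HP, SAA4, C4A, HBA2) are uncertain. The deposited values are whole read counts, not normalized, for 16339 rows. Rows whose symbol order depends on letter case (93, 0.319% of counts) or whose symbols had become dates (25, 0.133%) were left out, which leaves 16221.

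Groups follow the labels. The age comparison used edgeR 4.0.16 under R 4.3.3 (TMM, filterByExpr by group, robust glmQLFit, glmQLFTest) on 12277 genes without covariates, at an FDR of 0.1. The table with all its rows was an alternative. CPM is TMM-scaled, the SE is the size of the log2 fold change over the root of F, and permutation tests run over all 84 assignments of the livers on log2(CPM + 0.5). The procedure was tested on simulated data. Alternatives were DESeq2 1.42.0, limma 3.58.1 (voom with quality weights), other scalings and filters, an FDR of 0.05, and leaving out livers. No 2 libraries agreed within sampling noise (chi-square per degree of freedom at least 29.0), and each is taken as 1 replicate. Genes of low count, such as SAA4, LCN2, IL6, LIF and IL11, carry more counting error.

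The genes, lists and alternatives were chosen with earlier results of these data known. Named genes are the 10 acute phase genes, from each other list those with the lowest p (up to 4) and, for the IL-6 and transcription factor lists, all called; others are said to be picked out. Some genes of the lists are not reported here. Of the 10, 7 match a symbol in the RefSeq gene table used here, which is of another build, so no coordinates or sequences are given. Columns of other samples numbered 0.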

Additional observations from a re-analysis of the deposited data

Results flagged for a closer look

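Among the 6 young livers, 2 of the tested acute phase genes had a value far from the rest. ORM1 was at 17417 CPM in the young liver of 4.1 years, and its gap to the next liver was 0.658 of the whole young range, above Dixon's critical value of 0.625 for 6 samples. LCN2 was at 38.1 CPM in the young liver of 2.8 years, with a gap of 0.740 of the range. SAA4, which was not tested, also passed this value, through 1 count in the young liver of 2.7 years. For normally distributed values chance flags about 1 in 20 groups tested in this way. The values here were CPM, which are skewed, so that rate need not hold. On the log2 scale, centred on the gene's mean, ORM1 was at 1.27 in the flagged liver, 0.087 in the next young liver and -1.46 in the lowest. LCN2 was at 3.43, 1.62 and -1.49 in the same way. The flags thus rest on the linear scale. The same liver of 4.1 years also had the highest HP among all livers and the highest summed neutrophil markers, and the liver of 2.8 years the next highest neutrophil markers. Their part in the ORM1 and LCN2 values was not tested.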

How the results depend on the processing

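The count of acute phase genes called higher was 1, and it was 2 after scaling to hepatocyte markers (STAT3 and LBP, when 14.7% of all genes were), 4 with voom (STAT3, LBP, ORM1 and CRP, beside 20.5%), 3 without old liver A and the young liver of 4.1 years (STAT3, ORM1 and CRP, beside 14.2%), and 0 to 2 when each liver was left out in turn (0 without the young liver of 2.7 years, beside 1.02%, and 2 without that of 4.1 years, beside 17%). No acute phase gene was called lower in any of the 20 alternatives. Over 180 alternative values of the tested genes, 161 kept their direction and 19 turned. ITIH4 turned to -0.063 with upper quartile scaling, -0.0026 with DESeq2, -0.19 with voom, -0.011 without the filter and -0.18 without both livers. HP turned to 0.015 with hepatocyte scaling, 0.43 with voom and 0.50 without both livers, and APCS to 0.28 with voom and 0.33 without both livers. With each liver left out in turn the log2 fold change ran from -0.15 to 0.10 for ITIH4, -0.49 to 0.20 for HP, -0.69 to 0.31 for APCS, -0.25 to 0.85 for CRP, -0.035 to 0.31 for ITIH3 and -2.84 to 0.45 for LCN2. The cause was not tested. Hepatocyte scaling moved the median of all genes to 0.29. All 140 alternative values of the other genes followed kept their direction, of which 30 lost the call and 13 gained one. Over all genes 1437 were higher and 448 lower, against 264 and 167 without old liver A, 1758 and 1451 without both livers, 1806 and 1058 with DESeq2, 2514 and 2066 with voom, and 125 and 62 without the young liver of 2.7 years. No paired analysis was possible because the labels share no replicate numbers between groups. With 3 old livers, 1 of them apart from the others, changes of the size seen in CRP, APCS and HP lie within the error.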

Other observations

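For each tested acute phase gene, the genes with the most similar pattern over the 9 livers were picked by the root mean square difference of log2(CPM + 0.5), centred on each gene's mean, among 12277 genes. The closest were LRG1 and GPR84 for HP (0.25 and 0.26 on the log2 scale), LY86 and SLA for CRP (0.23 and 0.28), CPN1 and PLAC8 for APCS (0.27 and 0.28), and C15orf48 and RARRES1 for ORM1 (0.40 and 0.41). LRG1 is itself a plasma protein of the acute phase. For LBP they were GALNT6 and CASP1 (0.46 and 0.49), for LCN2 the neutrophil genes CAMP and FCN1 (0.71 and 0.74), for ITIH3 RNFT2 and RBM17 (0.11 each), for ITIH4 ILK and PXK (0.07 and 0.08), and for STAT3 DCP1A and ADRBK2 (0.13 each). Among the acute phase genes themselves ITIH3 and ITIH4 (0.39) and CRP and HP (0.43) lay closest. A small distance is easily met by genes that vary little, so the values are not comparable between genes of high and low spread.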
